A study of Mus musculus and Homo sapiens with 9 samples.

Results

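The CD1 genes encode a family of lipid-presenting molecules, and their transcripts were followed in RNA-seq libraries of J.gamma1 cells and of mouse splenic CD3+ T cells. Members were chosen by name, as CD1A, CD1B, CD1C, CD1D and CD1E among the 64252 rows of the human count table and Cd1d1 among the 43432 rows of the mouse count table, and all 6 were found and passed edgeR's filter on low counts. J.gamma1 cells descend from Jurkat, a line of T-cell acute lymphoblastic leukemia (T-ALL), and lack the phospholipase PLCG1. The cells were stably transduced with a control hairpin (shNC, 2 libraries) or a hairpin against the transcriptional cofactor IRF2BP2 (shIRF2BP2, 2 libraries). The mouse libraries came from splenic CD3+ cells, sorted with magnets, of animals with the genotype Vav-iCre+/-;Irf2bp2 fl/fl (KO, 2 libraries) and of controls that the labels call wild type and the study's methods give as Vav-iCre-/-;Irf2bp2 fl/fl (WT, 3 libraries). Vav-iCre acts throughout the hematopoietic lineage, so the deletion was not limited to T cells, and both mouse groups carried the floxed alleles. KO and control mice of the study were examined at 6 weeks of age, and no separate age is given for the sequenced animals. The sources used here do not name the hairpin in these libraries, and J.gamma1 is 1 line. Nothing says that the J.gamma1 replicates were separate cultures, so the spread between them may be technical.

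CD1 molecules resemble MHC class I molecules, pair with beta-2-microglobulin and display lipids in place of peptides to T cells. CD1a, CD1b and CD1c form the first group of the family, are found on cortical thymocytes and on dendritic cells, and present foreign and self lipids to diverse T cells. CD1d presents glycolipids such as alpha-galactosylceramide to natural killer T (NKT) cells, and CD1e stays inside the cell, where it helps to process lipids for the others. Mice have lost the genes of the first group and keep CD1d, which is why Cd1d1 is the mouse member followed here. Cortical forms of T-ALL are recognised in the clinic by CD1a on the cell surface.

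The depth of the libraries lay between 16668577 and 37177523 counts. IRF2BP2 was at 201 and 195 CPM (counts per 1000000 counts of the library, on sizes scaled by TMM) in the shNC libraries and at 77.4 and 91.9 CPM in the shIRF2BP2 libraries, so 42.9% of its level remained. Irf2bp2 had 4145, 4594 and 1915 counts in the WT libraries and 0 in both KO libraries. The targeted gene followed the labels in both tables. T cell transcripts were present in both kinds of cell, with CD3E between 402 and 491 CPM in J.gamma1 and Cd3e between 279 and 445 CPM in the mouse libraries. Of 12 dendritic cell and monocyte markers in J.gamma1, 11 were under 1 CPM in every library and 6 (ITGAX, LYZ, CSF1R, FCER1A, CLEC10A and HLA-DRA) had no count in any, and the summed level of the list was between 0.53 and 1.85 CPM.

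The 5 human genes lie side by side on chromosome 1 (hg38), in the order CD1D, CD1A, CD1C, CD1B and CD1E, within a span of 179.5 kb from position 158178030 to position 158357553. CD1D (ENSG00000158473) occupies chr1:158178030-158186427, CD1A (ENSG00000158477) chr1:158254424-158258269, CD1C (ENSG00000158481) chr1:158289923-158294774, CD1B (ENSG00000158485) chr1:158327951-158331531 and CD1E (ENSG00000158488) chr1:158353696-158357553. CD1B is on the minus strand and the other 4 are on the plus strand, each with 6 exons in its canonical transcript in GENCODE 44. No annotated gene overlapped any of them, and the gaps between neighbours ran from 22164 to 67996 bases. The coding sequences were 67.2% to 73.2% identical between the 10 pairs, and the longest exact run that a pair of transcripts shared was between 17 bases (CD1C and CD1D) and 92 bases (CD1A and CD1B), shorter than the 150-base reads.

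All 5 human members were lower in the shIRF2BP2 libraries than in the shNC libraries, with no overlap between the groups for any member. The family was chosen with the results of this contrast known, so its J.gamma1 values are given as a description without a test. The size of the difference was very unequal: 15.1% of the CD1A level remained, 33.0% of CD1C, 45.8% of CD1E, 52.4% of CD1B and 67.1% of CD1D. A call needed edgeR's quasi-likelihood test to give an adjusted p below 0.05, and the log2 fold change to be 0.5 or more in either direction. By this measure 4 of the 5 (CD1A, CD1B, CD1C and CD1E) were called lower, where 4.42% of the 17098 genes tested were. With every row of at least 1 count in any library kept in the fit, 2 of the 5 (CD1A and CD1C) were called. Groups that did not overlap and were lower in shIRF2BP2 were found for 28.4% of all genes tested. The median log2 fold change was -1.13 over the 5 members and 0.01 over all genes.

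CD1A, the surface marker of cortical thymocytes, had 1417 and 1629 counts in the shNC libraries and 238 and 237 in the shIRF2BP2 libraries. On the CPM scale these were 53.7 and 51.4 against 8.02 and 7.88. Replicates of each group lay close together, and the groups were far apart. The fitted log2 fold change was -2.72 (SE 0.139, n = 2 and 2), a 6.61-fold lower level. Leaving out any 1 library kept it between -2.76 and -2.70.

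CD1C, which presents mycobacterial and self lipids and is a marker of a dendritic cell subset, was the member with the fewest counts. It had 211 and 261 counts in the shNC libraries and 72 and 88 in the shIRF2BP2 libraries, or 7.99 and 8.24 CPM against 2.42 and 2.92 CPM. Its log2 fold change was -1.60 (SE 0.252), a 3.03-fold lower level, with the largest error of the family. With 1 library left out it ranged from -1.74 to -1.49.

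CD1E, the intracellular member, had the most counts, 3130 and 4747 in shNC and 1601 and 2081 in shIRF2BP2. These were 119 and 150 CPM against 53.9 and 69.2 CPM, so the replicates differed more than those of CD1A. The log2 fold change was -1.13 (SE 0.169), a 2.18-fold lower level. Without 1 library it ranged from -1.32 to -0.95.

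CD1B, whose groove takes the longest lipids of the family, had 1066 and 1598 counts in shNC and 610 and 814 in shIRF2BP2. In CPM it stood at 40.4 and 50.5 against 20.5 and 27.1. The lowest shNC library was 1.49-fold above the highest shIRF2BP2 library. Its log2 fold change was -0.93 (SE 0.182), and with shIRF2BP2 replicate 1 left out it was -0.77 and no longer called. For both CD1B and CD1E the second replicate was the higher one in each group.

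CD1D, the member that NKT cells recognise, differed least. It had 701 and 847 counts in shNC and 503 and 566 in shIRF2BP2, or 26.6 and 26.7 CPM against 16.9 and 18.8 CPM. The shNC replicates were nearly equal, and both shIRF2BP2 libraries lay below them. The log2 fold change was -0.58 (SE 0.147), and it was the member just outside the call, while CD1B was the member just inside it by size. CD1D was called in 8 of the 12 other settings tried and not in 4, so its place beside the threshold turned on the settings.

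**Figure D1:**
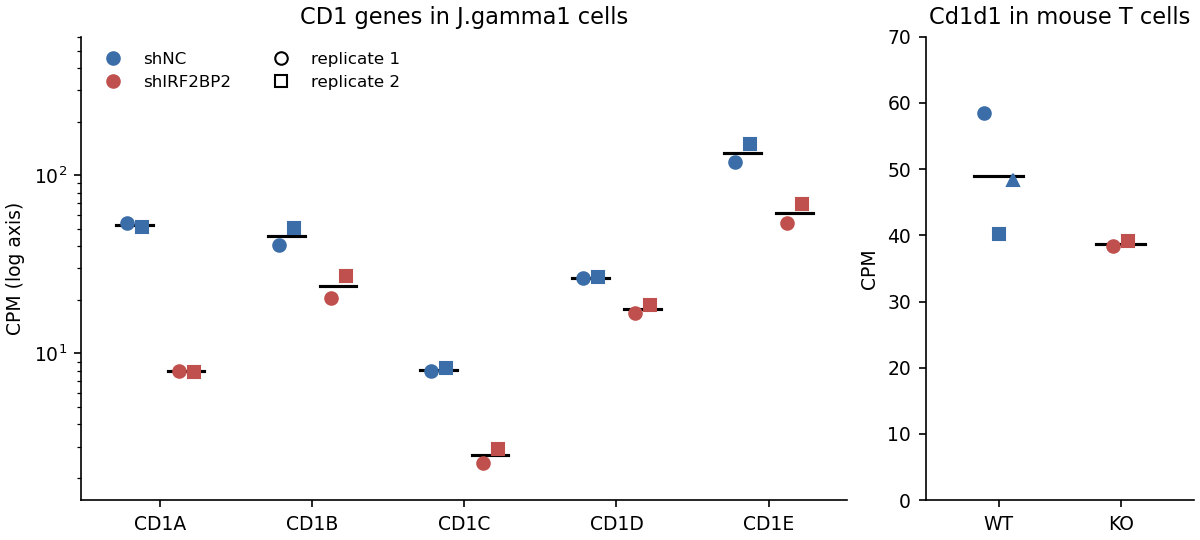
Levels of the 5 human CD1 genes in the 4 J.gamma1 libraries (left, CPM on a log axis) and of Cd1d1 in the 5 mouse libraries (right, CPM on a linear axis from 0). Blue points are shNC or WT libraries, red points are shIRF2BP2 or KO libraries, shapes give the replicate number and black bars give group means. CD1A shows the widest gap between groups and CD1D the narrowest, and Cd1d1 in KO (38.4 and 39.1 CPM) sits just under the lowest WT library (40.2 CPM).

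The order of the fitted differences, CD1A, CD1C, CD1E, CD1B and CD1D, was the same in 13 of 13 settings, among them 4 in which 1 library was left out. The gaps between neighbours in that order were uneven. CD1A was 1.12 below CD1C on the log2 scale, whereas CD1E and CD1B were 0.19 apart, less than the sum of their standard errors. CD1C and CD1E were 0.47 apart and CD1B and CD1D 0.36 apart, each slightly more than the sum of the pair's standard errors.

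**Figure D2:**
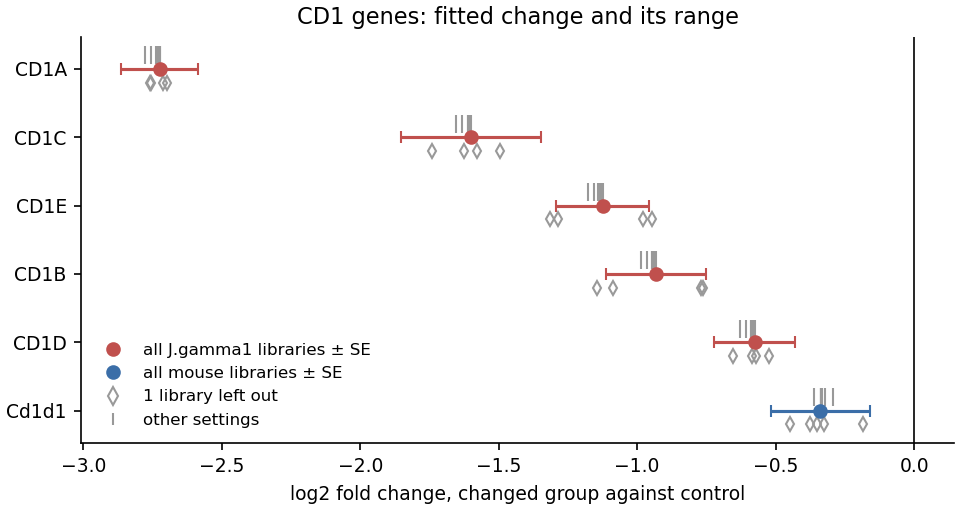
Fitted log2 fold change of each member (x axis, shIRF2BP2 against shNC for the human genes and KO against WT for Cd1d1). Filled circles with bars are the estimates with all libraries ± SE, diamonds are estimates with 1 library left out, and ticks are estimates under other scalings, filters or tools. The human members spread from -2.72 (CD1A) to -0.58 (CD1D), and CD1B and CD1E move most when a library is left out.

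Levels can be compared between members only per length, and for that CPM were divided by the kilobases of exon of each gene. In the shNC libraries CD1E stood highest at 60.9 ± 10.1 CPM per kb (SD, n = 2), followed by CD1B at 32.6 ± 5.11, CD1A at 29.1 ± 0.873, CD1D at 6.11 ± 0.0313 and CD1C at 3.32 ± 0.0722. CD1B and CD1A were not separated, since CD1B was at 28.9 and 36.2 CPM per kb in the shNC libraries and CD1A at 29.7 and 28.4. The other neighbours in the order did not overlap. In shNC, CD1E exceeded 95.9% to 97.0% of the 15819 genes ranked by level per length, CD1A 90.2% to 91.0%, and CD1C only 45.0% to 45.6%.

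In the shIRF2BP2 libraries the order of the members was the same on these lengths, but their distances were not. CD1E was at 27.9 ± 4.89 CPM per kb, CD1B at 17.1 ± 3.30, CD1A at 4.39 ± 0.0544, CD1D at 4.10 ± 0.303 and CD1C at 1.10 ± 0.145. CD1A, close to CD1B in the control cells, was now close to CD1D, at 4.43 and 4.35 against 3.89 and 4.32 CPM per kb. The order of this pair turned with the length used: per kb of the canonical transcript alone, CD1D was at 4.85 and 5.39 and lay above CD1A in both shIRF2BP2 libraries, and below it in both shNC libraries. The summed level of the family was 122 and 142 CPM per kb in shNC and 48.5 and 60.7 in shIRF2BP2. CD1A made up 22.2% ± 3.08 of that sum in shNC and 8.16% ± 1.38 in shIRF2BP2, CD1B 24.6% ± 1.19 and 31.2% ± 1.14, CD1E 46.0% ± 2.60 and 51.1% ± 0.924, CD1D 4.66% ± 0.485 and 7.56% ± 0.634, and CD1C 2.53% ± 0.221 and 2.01% ± 0.0511. The family transcript pool of the knockdown cells was thus smaller and held relatively less CD1A and CD1C and relatively more CD1B, CD1D and CD1E, with no overlap between the groups for any of these shares.

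**Figure D3:**
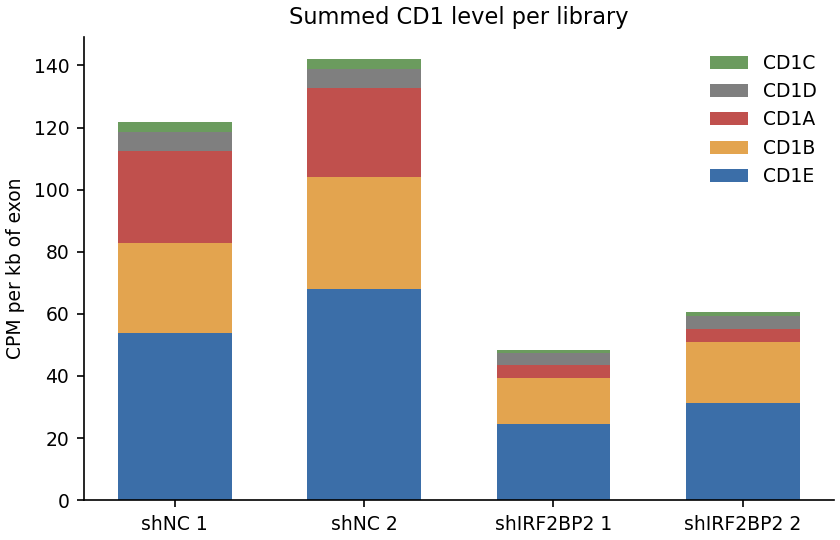
Stacked bars of CPM per kb of exon for the 5 CD1 genes in each J.gamma1 library, from 0. The bars reach 122 and 142 in the shNC libraries and 48.5 and 60.7 in the shIRF2BP2 libraries, and the CD1A segment is a mean of 22.2% of the bar in shNC and 8.16% in shIRF2BP2.

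The promoters of the 5 genes are shown because the members differ so widely in size of response while lying next to each other. Each sequence runs 5′ to 3′ on the strand of its gene, from 250 bases before to 50 bases after the start of the canonical transcript (hg38, GENCODE 44). The windows are chr1:158254174-158254473 (CD1A), chr1:158331482-158331781 (CD1B, minus strand), chr1:158289673-158289972 (CD1C), chr1:158180645-158180944 (CD1D) and chr1:158353644-158353943 (CD1E). The canonical transcripts of CD1D and CD1E start at positions 158180895 and 158353894, inside the spans of their genes. Windows at their earlier annotated starts were not examined. Capitals mark exact matches on either strand to the ETS word AGGAAG, the RUNX words TGTGGT and TGCGGT, the GATA word AGATAA and the E protein words CAGCTG and CATCTG.
CD1A: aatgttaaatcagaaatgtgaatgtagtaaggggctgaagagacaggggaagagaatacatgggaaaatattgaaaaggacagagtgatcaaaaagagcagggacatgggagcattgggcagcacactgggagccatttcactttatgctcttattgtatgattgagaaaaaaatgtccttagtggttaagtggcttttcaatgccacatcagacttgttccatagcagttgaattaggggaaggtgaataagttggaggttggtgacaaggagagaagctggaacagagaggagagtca
CD1B: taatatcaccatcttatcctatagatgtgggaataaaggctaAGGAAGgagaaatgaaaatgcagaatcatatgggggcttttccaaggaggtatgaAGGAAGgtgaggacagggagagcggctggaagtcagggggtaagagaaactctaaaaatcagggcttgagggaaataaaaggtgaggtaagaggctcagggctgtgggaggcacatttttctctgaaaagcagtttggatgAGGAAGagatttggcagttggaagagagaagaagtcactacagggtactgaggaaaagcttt
CD1C: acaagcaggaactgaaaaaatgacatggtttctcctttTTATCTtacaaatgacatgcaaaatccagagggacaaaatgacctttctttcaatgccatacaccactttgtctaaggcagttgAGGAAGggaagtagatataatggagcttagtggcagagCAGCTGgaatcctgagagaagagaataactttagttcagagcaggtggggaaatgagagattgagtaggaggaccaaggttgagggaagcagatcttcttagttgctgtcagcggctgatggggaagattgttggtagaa
CD1D: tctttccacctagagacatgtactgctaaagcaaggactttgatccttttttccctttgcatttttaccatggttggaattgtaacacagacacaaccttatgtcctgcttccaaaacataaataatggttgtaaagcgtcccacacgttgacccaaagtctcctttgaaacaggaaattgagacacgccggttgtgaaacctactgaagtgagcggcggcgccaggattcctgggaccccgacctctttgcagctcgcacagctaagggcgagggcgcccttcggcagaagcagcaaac
CD1E: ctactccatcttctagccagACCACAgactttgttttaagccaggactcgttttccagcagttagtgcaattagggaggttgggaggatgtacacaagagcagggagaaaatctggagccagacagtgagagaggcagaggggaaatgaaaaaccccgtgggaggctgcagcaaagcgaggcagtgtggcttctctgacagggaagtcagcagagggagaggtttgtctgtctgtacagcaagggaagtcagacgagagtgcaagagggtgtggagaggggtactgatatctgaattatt

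CD1A and CD1D held none of these words. AGGAAG, which contains the ETS core GGAA and was present in 32.7% of 20044 protein-coding promoters of the same length, occurred 3 times in CD1B, at 208, 153 and 12 bases before the start, and once in CD1C, at 128 bases before it. CD1C also held AGATAA on the reverse strand (7.16% of all promoters) and CAGCTG (17.7%), and CD1E held TGTGGT on the reverse strand (10.7%). The core GGAA alone was found between 4 and 9 times in each of the 5 windows and in 94.7% of all promoters, and TATAAA in none of the 5 and in 9.71% of all. The number of CpG dinucleotides was 0 in CD1A, 1 in CD1B, 1 in CD1C, 4 in CD1E and 12 in CD1D, where the median of all promoters was 23. GC content was 42.0% in CD1A, 43.0% in CD1C, 44.7% in CD1B, 49.0% in CD1D and 51.0% in CD1E, against a median of 63.7%. A word match is a property of the letters in these windows and says nothing of binding.

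Transcripts of 8 transcription factors known from CD1 promoters or from the study were read in the same libraries, among them RUNX1 and the ETS factors ELF1, ETS1, ERG and SPI1. ERG was called lower at 3.33 and 3.03 CPM in shNC and 0.707 and 1.33 CPM in shIRF2BP2 (log2 fold change -1.64, SE 0.407, adjusted p = 0.047 by edgeR). RUNX1 was called higher, at 617 and 502 against 928 and 839 CPM (0.66, SE 0.152, adjusted p = 0.038). The other 5 tested were not called: ELF1 (-0.07), ETS1 (-0.03), SP1 (0.36), RARA (0.37) and LEF1 (0.44), and SPI1, an ETS factor of myeloid and B cells, was at no more than 0.152 CPM and not tested. In this list 1 of 7 tested was lower and 1 higher, with a median of 0.36. Over all genes tested, 4.42% were called lower and 4.77% higher. Neither gene was called without shIRF2BP2 replicate 1 or with rows of at least 1 count in any library kept, and RUNX1 was not called without shIRF2BP2 replicate 2 either.

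Few genes around the cluster could be tested, and their fitted differences had both signs, with only 1 gene called. Within 1 Mb of the CD1 genes the annotation holds 64 other rows, of which 49 had no count in any library and 5 were tested. IFI16, an interferon-inducible DNA sensor, was called lower, at 304 and 326 CPM in shNC and 144 and 133 CPM in shIRF2BP2 (log2 fold change -1.19, SE 0.122, adjusted p = 0.00282 by edgeR). KIRREL1, a cell adhesion gene, had 1358 and 1394 counts in shNC and 1832 and 1689 in shIRF2BP2 (0.30, not called). The other 3, without a name in the annotation, had log2 fold changes of -0.76, 0.51 and 0.62 and were not called.

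The partners that assemble and load CD1 molecules were mostly not called. Of 34 genes for CD1 assembly, lipid transfer and sorting, 30 were tested, 1 was called lower and 3 higher. Their median log2 fold change was 0.07. Over all genes tested, 4.42% were called lower and 4.77% higher. All calls in this list were lost without shIRF2BP2 replicate 2 or with rows of at least 1 count in any library kept. None of the list was called with a fold threshold of 1 on the log2 scale, and without shNC replicate 2 more were called higher. B2M, the light chain of every CD1 molecule, was at 258 and 319 CPM in shNC and 333 and 373 CPM in shIRF2BP2 (log2 fold change 0.29, SE 0.147, adjusted p = 0.256 by edgeR). PSAP, the precursor of the saposins that place lipids into CD1 grooves, was at 575 and 664 against 662 and 639 CPM (0.07, adjusted p = 0.787). CALR, a chaperone of the endoplasmic reticulum that assists CD1 folding, was the 1 called lower, at 1660 and 1669 against 1006 and 857 CPM (-0.84, adjusted p = 0.015).

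AP2A1 and AP2A2 are the alternative large subunits of the AP2 adaptor that recycles CD1b, CD1c and CD1d from the surface. Both were called higher. AP2A1 was at 90.6 and 107 CPM in shNC against 150 and 144 in shIRF2BP2 (log2 fold change 0.57, adjusted p = 0.035 by edgeR). AP2A2 was at 42.5 and 41.0 against 61.9 and 80.6 CPM (0.77, adjusted p = 0.023 by edgeR). The AP2A1 call was lost without shNC replicate 1 or either shIRF2BP2 library, and with rows of at least 1 count in any library kept. The AP2A2 call was lost without shIRF2BP2 replicate 2 and with the same rows kept. The other AP2 subunits AP2B1, AP2M1 and AP2S1 (0.25, 0.05 and -0.17) and the AP3 subunits AP3B1, AP3D1, AP3M1 and AP3S1 (between -0.08 and 0.30), which direct CD1b to lysosomes, were not called. MTTP, the lipid transfer protein needed for CD1d loading, and APOE, CTSL and CD74 were under 1 CPM in every library and not tested.

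Among 14 genes typical of cortical thymocytes, the stage that CD1A marks, 5 were called lower and 1 higher. Over all genes tested, 4.42% were called lower and 4.77% higher. RAG1, a subunit of the V(D)J recombinase, fell from 59.7 and 29.6 CPM to 6.74 and 6.81 CPM (log2 fold change -2.72, SE 0.318, adjusted p = 0.00414 by edgeR). RAG2, its partner, fell from 17.9 and 15.3 to 4.38 and 3.86 CPM (-2.01), and DNTT, the terminal transferase that adds bases at V(D)J joints, from 25.0 and 43.0 to 5.93 and 10.6 CPM (-2.04). PTCRA, the surrogate alpha chain of the pre-T cell receptor, fell by 2.51 on the log2 scale from only 1.21 and 2.62 CPM, and CD38 fell by 0.86. SATB1, a chromatin organiser of thymocytes, rose (0.76), a call lost without either shIRF2BP2 library and with rows of at least 1 count in any library kept. CD8B, CD4, ITM2A, ARPP21, TOX, CD8A and CCR9 were not called, with log2 fold changes between -0.26 and 0.67, and the median of the 14 was -0.18. Without shIRF2BP2 replicate 1, 3 of the 14 (RAG1, RAG2 and DNTT) were called lower, and PTCRA was also not called without shNC replicate 2 or shIRF2BP2 replicate 2.

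Among 8 T cell markers 1 was called lower, CD3D (log2 fold change -0.79), and the median was -0.07. The share of all genes tested that were called lower was 4.42%, for comparison with this list and the B cell markers. The CD3D call was lost without shIRF2BP2 replicate 1. CD2, an adhesion receptor of T cells, stood lower still on the log2 scale, at 3.64 and 5.68 CPM in shNC and 1.41 and 2.23 CPM in shIRF2BP2 (-1.36, SE 0.373, adjusted p = 0.063 by edgeR), and was called in 5 other settings, DESeq2 among them. Of 6 B cell markers 2 were tested, and CD79A was called lower at 44.7 and 59.3 against 11.0 and 13.8 CPM (-2.07), while CD79B was not called and MS4A1, PAX5 and CD22 were at no more than 0.152 CPM. The part of these changes in the CD1 values was not tested. In bulk libraries, fewer cells that carry a transcript and less of it per cell cannot be told apart.

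**Figure D4:**
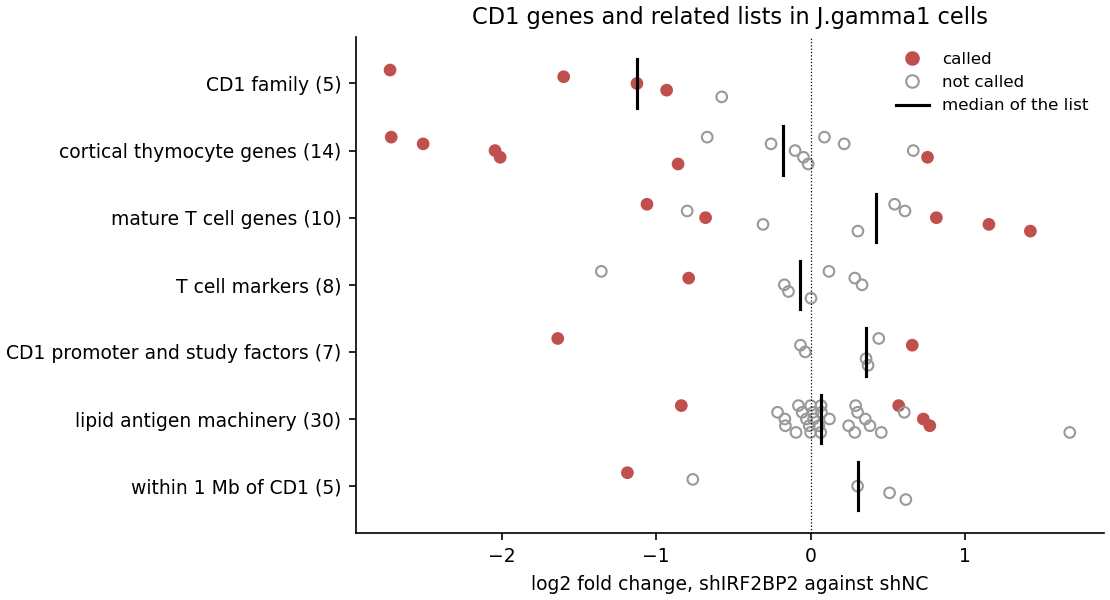
Log2 fold change (shIRF2BP2 against shNC) of every tested gene of the CD1 family and of 6 other groups, 1 row per group with the number tested. Filled red points passed the call (adjusted p below 0.05 and a difference of 0.5 or more), open grey points did not, and black bars are medians. All 5 CD1 points lie left of 0 with a median of -1.13, the cortical thymocyte genes split between a far-left set and a set near 0, and the lipid antigen machinery centres on 0.07.

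The genes with the pattern most like CD1A were found by the mean absolute difference of centred log2 CPM over the 4 libraries, among 10114 genes of at least 10 CPM. Among the 5 nearest were IGLL1, a surrogate light chain gene (difference 0.167), ALDH1A2, a retinoic acid synthesis enzyme (0.253), RAG1 (0.261) and GCH1, the first enzyme of tetrahydrobiopterin synthesis (0.265). IGLL1 stood at 470 and 638 CPM in shNC and 81.8 and 90.2 CPM in shIRF2BP2. For CD1C the nearest were VPS4A (0.0237), GFRA1 (0.0419), APOOL (0.0542), STEEP1 (0.0584) and DBT (0.0733), whose log2 fold changes lay between -1.62 and -1.45. The 5 nearest to CD1A were all farther from it than the 5 nearest to CD1C were from CD1C. With 4 libraries in 2 groups, likeness here is mostly likeness in the size of the group difference.

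In the mouse, Cd1d1 (ENSMUSG00000028076, chr3:86995834-86999441 on the minus strand, mm10) was clearly expressed in sorted splenic CD3+ cells and did not pass the test between KO and WT. It had 2168, 1457 and 775 counts in the WT libraries and 1473 and 1391 counts in the KO libraries. These were 58.4, 40.2 and 48.4 CPM in WT and 38.4 and 39.1 CPM in KO, a mean of 49.0 ± 9.12 (SD, n = 3) against 38.8 ± 0.504 (SD, n = 2). The KO libraries lay below every WT library, but by only 1.10 CPM from the lowest. Lower levels without overlap were found for 17.7% of the 15497 genes tested.

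The log2 fold change of Cd1d1 was -0.34 (SE 0.179, adjusted p = 0.434 by edgeR's quasi-likelihood test), where 0.11% of all genes tested were called lower and 2.44% higher (adjusted p below 0.05 and a log2 fold change of 1 or more in either direction). Leaving out 1 library moved it between -0.45 (without WT replicate 2) and -0.18 (without WT replicate 1), and WT replicate 1 was the highest of the 5. It was not called in any of the 13 other settings, with an adjusted p between 0.177 and 0.908. Per length, Cd1d1 exceeded 76.4% to 84.5% of the tested genes of each library. The log2 fold changes of CD1D in J.gamma1 (-0.58) and of Cd1d1 in the mouse cells (-0.34) come from tables that were fitted separately.

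Cd1d2, a near copy of Cd1d1 annotated as a polymorphic pseudogene at chr3:86986551-86989780, is 96.7% identical to it in coding sequence and shares exact runs of up to 242 bases, longer than a read. It took between 2.25% and 4.16% of the counts of both rows together. Its level was 2.53, 1.27 and 1.56 CPM in WT and 1.38 and 0.900 CPM in KO, with overlap between the groups (log2 fold change -0.65, SE 0.474, adjusted p = 0.580 by edgeR). Reads from the shared runs could have been counted in either row, so the split between the copies is uncertain.

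The mouse genes nearest to Cd1d1 over the 5 libraries, among 9126 of at least 10 CPM, were Snx4 (0.0166), Poll (0.0218), Fmo5 (0.0299), Fibp (0.0332) and Sgcb (0.0395). None of these 5 was called, and Snx4, a sorting nexin, was at 122, 87.2 and 101 CPM in WT and 79.9 and 82.5 CPM in KO.

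None of the 34 genes of the lipid antigen machinery was called in the mouse cells by edgeR or by DESeq2, 6 had an unadjusted p under 0.05, and their median log2 fold change was -0.10. B2m was at 2408, 3080 and 2168 CPM in WT and 2324 and 2177 in KO (-0.18), and Psap at 683, 681 and 577 against 743 and 608 CPM (0.06). Mttp was between 1.15 and 2.37 CPM throughout.

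No gene of 15 linked to NKT cells, the partners of CD1d, was called by edgeR or by DESeq2, and 3 had an unadjusted p under 0.05. Their summed level was 682 to 752 CPM in WT and 700 to 711 CPM in KO, and the median log2 fold change was -0.14. Cxcr6, a homing receptor of NKT and other activated T cells, was at 55.6, 54.2 and 45.7 CPM in WT and 30.1 and 26.8 CPM in KO (-0.87, SE 0.150, adjusted p = 0.037 by edgeR), which passed the test but not the required size. Zbtb16, which encodes the PLZF factor of innate-like T cells, was between 0.911 and 1.97 CPM and Traj18, the joining segment of the invariant receptor, between 0.437 and 0.889 CPM, with overlap between the groups. The variable segments used by NKT cell receptors were lower in KO without overlap, as were 17.7% of all genes tested. Trav11 was at 0.728, 0.745 and 0.874 CPM in WT and 0.391 and 0.450 CPM in KO (-0.88, SE 0.504), and Trav11d at 0.781, 0.800 and 1.19 against 0.365 and 0.394 CPM (-1.26, SE 0.522), on 14 to 29 counts each. Trbv13-2, which many other T cells also use, was at 65.4, 61.4 and 57.4 CPM in WT and 42.8 and 41.4 CPM in KO (-0.55, SE 0.125). Their adjusted p values by edgeR were 0.470, 0.306 and 0.083, so none was called.

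Cells other than T cells also carry Cd1d1, marginal zone B cells above all, so their markers are given beside it. Of 9 B cell markers, 1 (Ighm) was called higher in KO and the other 8 were not called. The median log2 fold change was -1.05 over the list, and 2.44% of all genes tested were called higher. The Ighm call was lost without WT replicate 1, without KO replicate 1 and without KO replicate 2. The summed B cell marker level was 1241 to 2243 CPM in WT and 3928 to 5656 CPM in KO, and Ighm made up most of it. Ms4a1, which encodes the B cell surface protein CD20, was at 21.6, 40.5 and 2.75 CPM in WT and 17.3 and 3.66 CPM in KO. None of 6 marginal zone B cell markers was called by edgeR or by DESeq2, 1 had an unadjusted p under 0.05, and the median was -0.34. Cr2, the complement receptor CD21, was at 12.7, 10.2 and 0.999 CPM in WT and 24.6 and 2.92 CPM in KO. Ms4a1 was highest in WT replicate 2, Cr2 in KO replicate 1 and Cd1d1 in WT replicate 1.

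None of 11 dendritic cell and macrophage markers was called by edgeR or by DESeq2, 3 had an unadjusted p under 0.05, their median log2 fold change was -0.29, and Itgax was between 4.43 and 17.9 CPM. All 11 T cell markers had a log2 fold change below 0 (median -0.47), 9 had an unadjusted p under 0.05 and none was called by edgeR or by DESeq2, with a summed level of 5581 to 6100 CPM in WT and 4014 to 4282 CPM in KO. Cd8b1, a chain of the CD8 coreceptor, passed the test but not the required size (log2 fold change -0.94, adjusted p = 0.022 by edgeR). Of 10 erythroid markers 4 were called higher in KO, among them Klf1, Gata1 and Ermap, but none without WT replicate 1 or without KO replicate 2 and 1 without KO replicate 1. Over all genes tested, 2.44% were called higher. The summed erythroid level was 587 to 2232 CPM in WT and 4092 to 5803 CPM in KO. The part of the erythroid, B cell and T cell transcripts in the lower Cd1d1 values of the KO libraries was not tested.

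**Figure D5:**
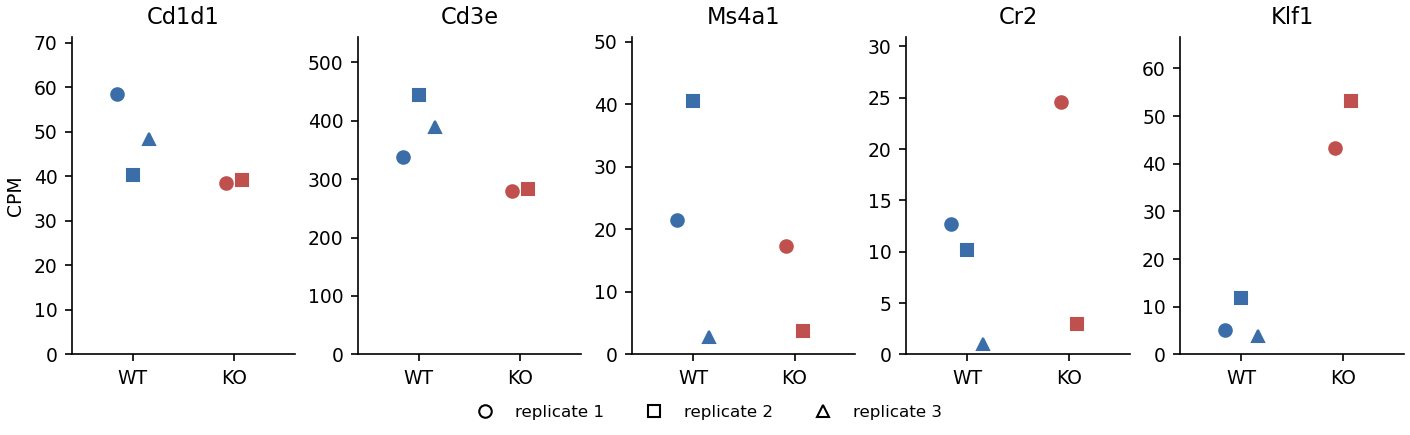
CPM per library, on linear axes from 0, of Cd1d1 and of a marker of T cells (Cd3e), B cells (Ms4a1), marginal zone B cells (Cr2) and erythroid cells (Klf1) in the 3 WT (blue) and 2 KO (red) libraries, with shapes for the replicate number. Cd1d1 and Cd3e are lowest in the KO libraries, Ms4a1 and Cr2 overlap between the groups, and Klf1 is at 3.81 to 11.8 CPM in WT and at 43.3 and 53.1 CPM in KO.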

How the data were processed

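Libraries made from total RNA with a TruSeq RNA kit were sequenced by the authors on an Illumina NovaSeq, aligned with HISAT2 2.2.0 to hg38 or mm10 and quantified with StringTie, per the labels and the study's methods. The deposited tables hold the authors' raw read counts, as whole numbers for each Ensembl gene and library, without pooling. How StringTie output became counts and whether strand was used is not given in the sources used here. No sample column was left out (0). Totals were 26648204 and 31120236 (shNC), 30203745 and 29937407 (shIRF2BP2), 37130371, 36515206 and 16668577 (WT), and 37177523 and 35032688 (KO).

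Each table was fitted separately in edgeR 4.0.16 (R 4.3.3) with filterByExpr, TMM scaling, glmQLFit and glmQLFTest with the condition as the only term, over 17098 human and 15497 mouse genes, with Benjamini-Hochberg adjustment over all of them. Genes were called at an adjusted p below 0.05 where the log2 fold change reached 0.5 (J.gamma1) or 1 (mouse) in either direction. The SE was the log2 fold change divided by the square root of F. Replicate pairs were no repeats of 1 library (the lowest chi-square per gene was 17.7), which left 2 (human) and 3 (mouse) residual degrees of freedom. GENCODE 44 and M21 gave lengths, positions and transcripts, and held 56105 human and 42548 mouse rows. Centred log2 CPM used a prior count of 2. Scripts were tested on simulated counts, and sequences and words were read in Python 3.11.15.

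The members and the gene lists (lipid antigen machinery, cortical thymocyte, mature T cell, promoter factor, NKT, T, B, marginal zone B, dendritic, monocyte, macrophage and erythroid genes) were chosen with earlier results of these data known. Named genes are the members, Cd1d2, the targeted gene, called members of the lists with a few others of known role in CD1 biology, called neighbours within 1 Mb, and the 5 genes most similar to CD1A, CD1C and Cd1d1. Cxcr6, Cd8b1, Ms4a1, CD2, the NKT receptor segments, KIRREL1, the CD1 factors and other uncalled list genes with values were chosen after their values were seen. Some items that the rule would name are left out here. Alternatives were RLE and upper-quartile scaling, DESeq2 1.42.0, 2 other count filters, counts divided by 2, other fold thresholds, a replicate block, each library left out and, added after the data were seen, rows in GENCODE only and the length of 1 transcript.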

Additional observations from a re-analysis of the deposited data

How the results depend on the processing

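All 6 CD1 genes kept their direction in every setting in which they were fitted. The count of CD1 genes called lower in J.gamma1 was 4, lay between 3 and 5 in all alternatives but 1, and was 2 when rows of at least 1 count in any library were kept, and the cause was not tested. Cd1d1 was not called in any alternative. With that filter, 208 genes were called lower and 147 higher in J.gamma1 (755 and 815 otherwise), the lipid machinery had 0 higher, the cortical thymocyte genes 2 lower, and the mature T cell genes 0 lower and 1 higher. With a fold threshold of 1 on the log2 scale, 327 genes were lower and 268 higher, the lipid machinery had 0 higher and the mature T cell genes 1 lower. By DESeq2, 66 mouse genes were lower and 737 higher (17 and 378 by edgeR), with 7 erythroid markers higher, and the cause was not tested.

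Leaving out 1 library leaves some arms with a lone sample, which is then assumed to vary like the other group. In J.gamma1 this gave 351 to 1173 genes lower, 332 to 1661 higher, 3 to 5 CD1 genes lower, 0 to 5 lipid machinery genes higher, 3 to 5 cortical thymocyte genes lower and 0 to 3 mature T cell genes lower. The lowest count of genes called came without shIRF2BP2 replicate 1 and the highest without shNC replicate 1. In the mouse, 1 to 37 genes were lower, 6 to 532 higher and 0 to 5 erythroid markers higher, with 6 genes higher without WT replicate 1, 9 without KO replicate 2 and 47 without KO replicate 1.

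The labels give same-numbered libraries a shared number only, and whether they were paired is not stated. The correlation of their deviations was 0.199 in J.gamma1 and lay between -0.156 and 0.155 in the mouse. A replicate block gave an SE of 0.119 for CD1B and 0.104 for CD1E (0.182 and 0.169 without it). Pairing itself was not tested. With the replicate block, 1140 genes were lower and 1248 higher in J.gamma1, all 5 CD1 genes were called, 35 mouse genes were lower and 409 higher, and Cd1d1 was at -0.32 (adjusted p = 0.357 by edgeR). The level of CD1D per length in shNC was 7.63 CPM per kb with the length of 1 transcript in place of 6.11. Every row has an Ensembl identifier, so keeping all rows changed nothing, and a coding length from a protein table was not run because no such table was used here.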

Other observations

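Genes of mature T cells moved in both directions in the shIRF2BP2 libraries. Of 12 such genes 10 were tested, 2 were called lower and 3 higher by edgeR's quasi-likelihood test. Their median log2 fold change was 0.43. Over all genes tested, 4.42% were called lower and 4.77% higher. S1PR1, the receptor with which thymocytes leave the thymus, rose from 14.5 and 14.9 CPM to 39.4 and 39.5 CPM (1.42, SE 0.135), KLF2, a factor that drives S1PR1, rose from 17.2 and 22.7 to 48.0 and 41.0 CPM (1.16, SE 0.175), and CD28, a costimulatory receptor, rose by 0.81 on the log2 scale. IL7R, the interleukin-7 receptor chain of naive T cells, fell by 1.06. Without shIRF2BP2 replicate 1 none of the 10 was called lower, and without shIRF2BP2 replicate 2 1 was. CD44 was at no more than 0.0757 CPM and LTB had no count in any library.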
